A study of Rattus norvegicus with 24 samples.

Results

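The 8 genes described here encode receptors for peptide hormones and cytokines: Avpr1a, Oxtr, Agtr1a and Cckbr, which couple to G proteins, and Prlr, Ghr, Lepr and Il6st, which belong to the class I cytokine receptor family. They were taken as a group by name, and the array's readings of them were all probe sets whose single gene symbol in the platform annotation is one of the 8. That gave 22 of 31099 probe sets: 1 for Avpr1a, 1 for Oxtr, 2 for Agtr1a, 2 for Cckbr, 3 for Prlr, 2 for Ghr, 7 for Lepr and 4 for Il6st. A probe set is a group of short probes that reads a stretch of the transcript, so the probe sets of a gene are not replicates of each other.

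The tissue was the supraoptic nucleus of Sprague Dawley rats, a cell group of the hypothalamus. Its large (magnocellular) neurons secrete vasopressin and oxytocin into the blood. Each Affymetrix array held RNA pooled from 5 rats, and the labels name no genetic change in any rat. The groups were females without water for 72 hours but with food (4 arrays used), euhydrated control females (4 arrays), males dehydrated for 3 days (5 arrays) and control males (5 arrays). The males were 10 to 12 weeks old, and the labels give no age for the females. A pool hides the spread between its rats. The depositors call the samples of a group both biological and technical replicates, so whether each array held a separate pool is not settled. The p-values measure the spread between these arrays, which may be less than that between pools of rats. The female and male arrays also differ in RNA extraction, labelling and signal software, so levels were compared only within a sex. The 5 lactating samples had no values in the deposited table and were not analysed here.

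Avp and Oxt, which define magnocellular neurons, read 3644 to 7666 and 3001 to 6698 on the 18 arrays used. Dehydrated female replicate 5 read 50.6 for Avp and 26.0 for Oxt. It stood apart from its label's tissue and was left out of the main values. Values with it are given where they change a call. No pair of arrays held identical values. Precision rests on few arrays: over all probe sets tested, the median SE was 0.17 (log2) in females and 0.12 in males.

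The vasopressin V1a receptor, the oxytocin receptor, the angiotensin II type 1a receptor and the cholecystokinin B receptor signal mainly through Gq proteins, phospholipase C and release of calcium from internal stores. The prolactin, growth hormone and leptin receptors and gp130, the signal-transducing chain encoded by Il6st, have no kinase of their own. They act through Janus kinases, which phosphorylate STAT transcription factors. In the supraoptic nucleus, angiotensin and cholecystokinin are known to excite magnocellular neurons, prolactin is known to act on oxytocin neurons, and vasopressin and oxytocin released from dendrites act back on the neurons that made them.

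The promoters of Cckbr and Prlr are shown because these were the receptor genes with a probe set higher in dehydrated rats. Each is the 250 bases before an annotated start in RefSeq's GRCr8 table, 5′ to 3′ on the gene's strand, with motif matches in capitals. All 8 genes matched the table, and Prlr had 2 starts.
Cckbr, chr1:169183328-169183577, plus strand: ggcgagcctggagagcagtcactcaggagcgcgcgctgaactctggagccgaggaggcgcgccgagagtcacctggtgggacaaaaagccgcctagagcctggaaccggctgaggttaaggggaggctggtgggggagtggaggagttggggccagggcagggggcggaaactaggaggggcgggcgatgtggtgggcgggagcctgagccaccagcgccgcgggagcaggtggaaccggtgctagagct
Prlr, chr2:60861515-60861764, plus strand: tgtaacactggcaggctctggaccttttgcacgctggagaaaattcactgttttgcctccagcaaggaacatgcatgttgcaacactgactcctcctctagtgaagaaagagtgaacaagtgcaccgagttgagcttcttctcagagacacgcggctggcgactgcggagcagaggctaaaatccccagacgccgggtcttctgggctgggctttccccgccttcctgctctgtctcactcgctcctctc
Prlr, chr2:60909409-60909658, plus strand: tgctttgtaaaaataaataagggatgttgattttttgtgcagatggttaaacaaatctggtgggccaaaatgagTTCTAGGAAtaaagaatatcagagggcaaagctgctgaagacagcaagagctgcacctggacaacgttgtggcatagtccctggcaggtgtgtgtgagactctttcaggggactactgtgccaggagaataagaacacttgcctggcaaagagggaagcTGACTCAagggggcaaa
The motifs searched on both strands were the cAMP response element TGACGTCA, the AP-1 element TGANTCA and the STAT element TTCNNNGAA. They do not overlap each other in these windows. The second Prlr window held 1 AP-1 match and 1 STAT match, and the windows of Cckbr and of the first Prlr start held none. Of 33469 RefSeq promoters of the same length, 1.59% held the cAMP response element, 6.34% the AP-1 element and 7.67% the STAT element. A match is only a run of letters, and nothing about binding was measured.

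A background level was set for each group from 26 probe sets of 23 genes. The genes were chosen as restricted to testis, exocrine pancreas, gut, liver or kidney. The level was the 90th percentile of the mean signals of these probe sets. It was 36.4 in dehydrated females, 27.8 in control females, 23.0 in dehydrated males and 17.6 in control males. Of the 22 receptor probe sets, 8 lay above it in dehydrated females, 10 in control females, 10 in dehydrated males and 11 in control males. Of all probe sets, 54.9%, 63.1%, 61.6% and 68.8% did in those groups. In dehydrated females the genes above background were Cckbr, Il6st and Prlr. In control females they were Agtr1a, Il6st, Lepr and Prlr, and in both male groups Agtr1a, Cckbr, Il6st, Lepr and Prlr. The levels differ between groups, so a gene above background in 1 group only is not thereby shown to change. Agtr1a 1384240_at averaged 27.6 in dehydrated and 27.9 in control females, the latter just above 27.8. In no group were Avpr1a, Oxtr or Ghr above its background level. The background gene Slc12a1, a kidney transporter, was the highest of its list in both dehydrated groups, at 124 in females and 71.3 in males. Without it, an alternative chosen after seeing the data, the level was 28.2 in dehydrated females and 19.0 in dehydrated males. Lepr was then above background in dehydrated females and Ghr in control males. In dehydrated females 10 receptor probe sets then lay above, and Cckbr 1371159_a_at, at a mean of 33.9, was 1 of them.

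**Figure D1:**
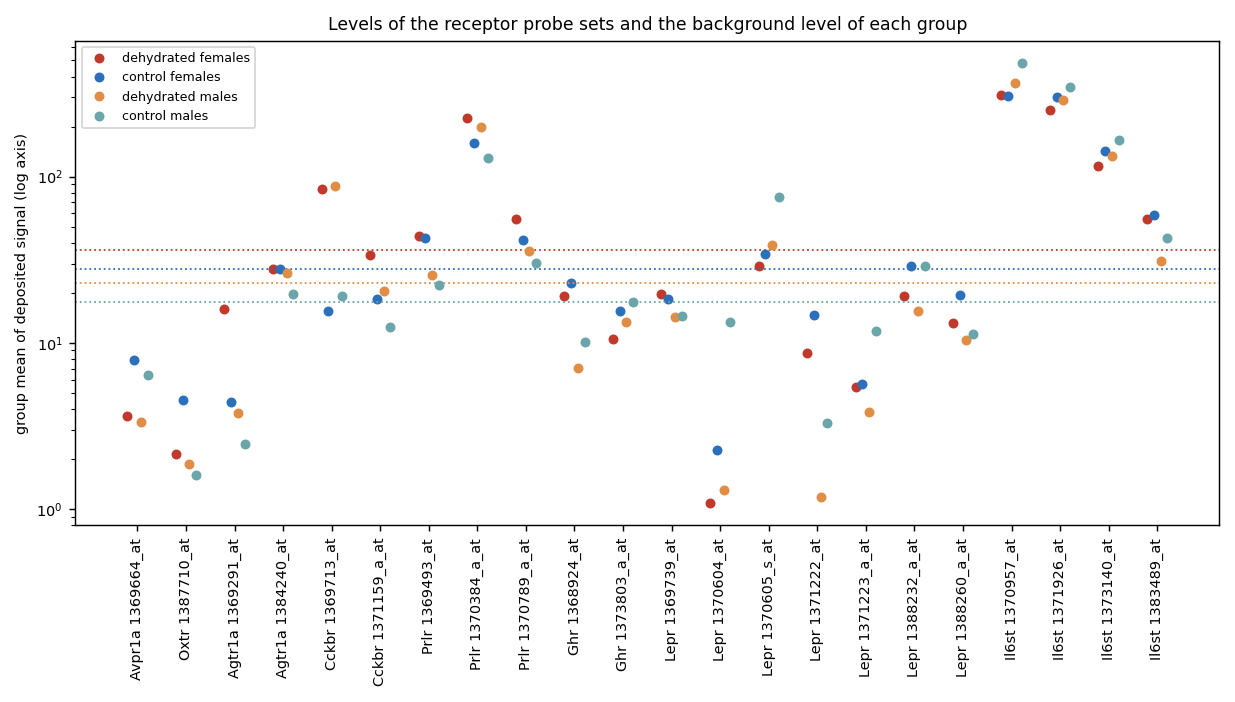
Mean deposited signal (log axis, intensity units) of each of the 22 receptor probe sets in dehydrated females, control females, dehydrated males and control males, with each group's background level as a dotted line of its colour. The probe sets of Avpr1a and Oxtr lie below every line, while 3 of the 4 Il6st probe sets and Prlr 1370384_a_at lie above all of them.

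In dehydrated females, 1 of the 22 receptor probe sets was higher and none was lower by limma (adjusted p threshold 0.05), where 13 passed the filter on low values. Of the 21729 probe sets tested on the array, 2.96% were called, 1.77% higher and 1.19% lower. In dehydrated males 2 receptor probe sets were higher and 5 lower, where 11 passed the filter, against 17.7% called of the 21729 tested, 8.32% higher and 9.38% lower. The 7 calls in males belong to 4 genes: Cckbr and Prlr were higher, and Lepr and Il6st were lower. The filter is on the mean of both groups, so a probe set that is high in a single group can pass through that group, and these counts describe the probe sets that passed. At an unadjusted p under 0.05 there were 4 receptor probe sets in females and 8 in males.

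Among the 13 receptor probe sets that passed the filter in females, every dehydrated array was above every control array for 2, and below for 1, where 5.31% and 7.03% of the 21729 probe sets tested did so. Both of the 2 were Cckbr probe sets, with control means of 15.6 and 18.3, under the filter's signal level of 20.1. They passed the filter through the dehydrated group, so their count is a description and is not to be weighed against that share. Among the 11 that passed in males, every dehydrated array was above every control array for 2, and below for 3, where 6.82% and 5.84% of those tested did so. Of the receptor probe sets below the filter, Agtr1a 1369291_at in females was the only 1 whose groups did not overlap.

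**Figure D2:**
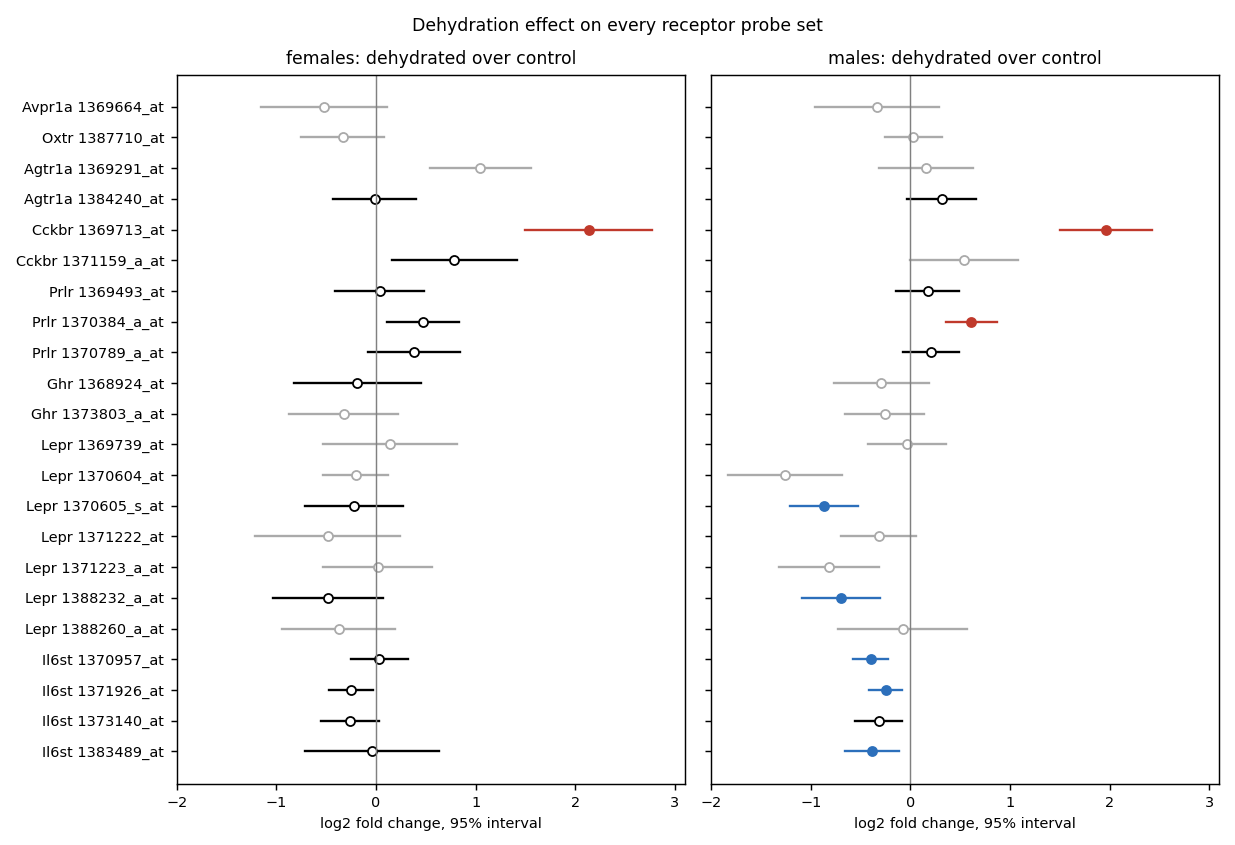
Log2 fold change of dehydrated over control with its 95% interval for all 22 receptor probe sets, in females (left) and males (right); filled points passed the limma threshold, red higher and blue lower, and grey points were below the filter on low values. Cckbr 1369713_at lies at 2.14 in females and 1.96 in males, while the called Lepr and Il6st probe sets lie below 0 in males.

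Of the Gq-coupled receptors, Cckbr, the principal brain receptor for cholecystokinin, rose in both sexes. Its probe set 1369713_at read 96.6, 91.9, 87.2 and 62.5 in dehydrated females, against 11.3, 19.4, 26.7 and 5.19 in control females. No control female array reached the background level, whereas all 4 dehydrated arrays exceeded it. The rise was at least 3.04-fold, taking the control group at background, and the fitted log2 fold change was 2.14 ± 0.29 (SE, n = 4 each; limma adjusted p = 0.00372). With dehydrated female replicate 5, which read 48.2, the log2 fold change was 1.99 and the call was lost (limma adjusted p = 0.137).

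In dehydrated males the same Cckbr probe set read 75, 94.4, 96.2, 97.2 and 74.9, against 26.2, 13.6, 18.4, 7.2 and 29.8 in control males. The groups did not overlap, and their means were 87.5 ± 11.5 and 19.0 ± 9.18 (SD, n = 5 each), a ratio of 4.60. The control mean lay just above its background of 17.6, with readings of 13.6 and 7.2 below it, so the ratio is imprecise. The log2 fold change was 1.96 ± 0.22 (SE; limma adjusted p = 3.5e-05). The effects in the 2 sexes differed by 0.18 ± 0.38 on the log2 scale (95% interval -0.62 to 0.97; limma adjusted p = 0.936).

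The other Cckbr probe set, 1371159_a_at, which reads several Cckbr transcripts, had lower signals. It read 35.9, 39.6, 27.8 and 32.3 in dehydrated females, against 6.70, 16.6, 22.4 and 27.4 in control females. The groups did not overlap, and the dehydrated values lay about the background level of 36.4. Without Slc12a1 that level was 28.2, and the dehydrated mean of 33.9 lay above it. The log2 fold change of 0.78 ± 0.29 did not pass (SE, n = 4 each; limma adjusted p = 0.166). In males its means were 20.4 ± 6.48 in dehydrated and 12.4 ± 5.88 in control rats (SD, n = 5 each), and it fell below the filter.

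**Figure D3:**
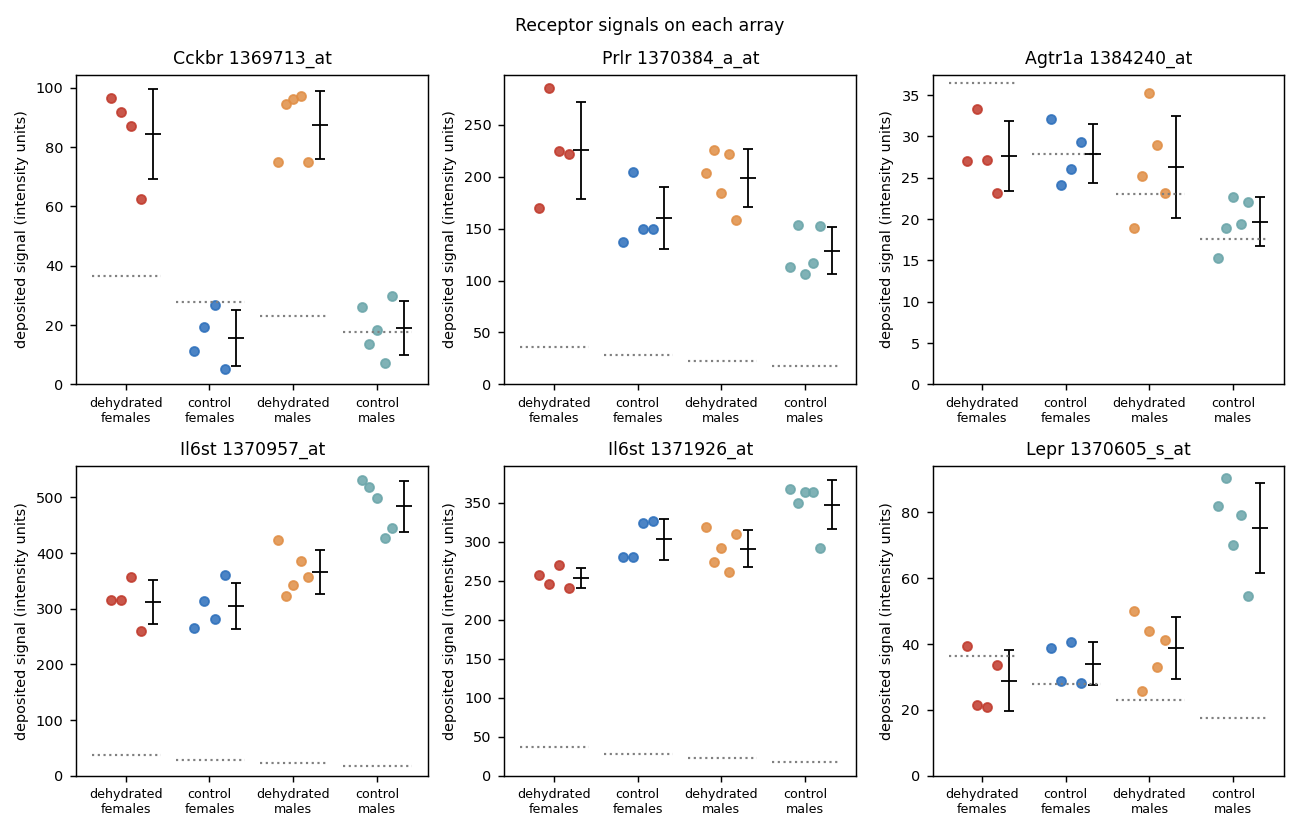
Deposited signal on every array for 6 receptor probe sets (intensity units, linear axes from 0), with group mean and SD as bars beside the points and the background level as dotted lines. The dehydrated arrays of Cckbr 1369713_at, at 62.5 to 97.2, lie above every control array of their sex, and the dehydrated males of Lepr 1370605_s_at, at 25.7 to 50, lie below every control male.

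Agtr1a, the main brain subtype of the angiotensin II receptor in rodents, did not pass the test in either sex. Its probe set 1384240_at averaged 27.6 ± 4.20 in dehydrated and 27.9 ± 3.55 in control females (SD, n = 4 each), and the log2 fold change was -0.01 ± 0.19 (limma adjusted p = 0.977). In males it averaged 26.3 ± 6.21 in dehydrated and 19.7 ± 2.95 in control rats (SD, n = 5 each), and the log2 fold change was 0.31 ± 0.16 (limma adjusted p = 0.203). Both male groups lay above background.

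The second Agtr1a probe set, 1369291_at, read 12.3, 18.7, 12.0 and 21.2 in dehydrated females, against 5.92, 3.66, 6.04 and 2.11 in control females. All 8 values are below background, and the probe set was below the filter, although its groups did not overlap. With no filter the log2 fold change was 1.05 ± 0.23 (SE, n = 4 each; limma adjusted p = 0.0482). In males it read 0.50 to 9.0 in dehydrated and 1.3 to 5.6 in control rats. Readings below background give no measure of a change, and the dehydrated female mean of 1384240_at was also not above its level of 36.4.

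Avpr1a and Oxtr, the receptors for the nucleus's own hormones, read below background on every array used. Avpr1a read 0.70 to 8.96 in dehydrated females, 3.20 to 12.4 in control females, 0.40 to 7.2 in dehydrated males and 1.4 to 15.1 in control males. Oxtr read 1.32 to 3.1, 1.90 to 7.17, 0.60 to 4.4 and 1.3 to 1.9 in the same groups. Both genes have a single probe set, below background and below the filter in each sex, and their groups overlapped. Such readings give no measure of a change and do not show that the receptors are absent.

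Of the cytokine-type receptors, Prlr rose in males. Its probe set 1370384_a_at, which reads several Prlr transcripts, gave 204, 226, 185, 222 and 158 in dehydrated males, against 113, 153, 106, 117 and 153 in control males. Every dehydrated male array was above every control male array. The means were 199 ± 28.2 and 129 ± 22.7 (SD, n = 5 each), and the log2 fold change was 0.61 ± 0.12 (SE; limma adjusted p = 0.00323).

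In females Prlr 1370384_a_at read 170, 285, 224 and 222 in dehydrated rats, against 137, 204, 149 and 150 in controls. The groups overlapped through dehydrated replicate 1 and control replicate 2, and the log2 fold change of 0.47 ± 0.16 did not pass (SE, n = 4 each; limma adjusted p = 0.147). The female effect minus the male effect was -0.14 ± 0.21 (95% interval -0.58 to 0.30; limma adjusted p = 0.898).

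The other 2 Prlr probe sets did not pass in either sex. Prlr 1370789_a_at averaged 55.8 ± 12.6 in dehydrated and 41.4 ± 9.91 in control females (SD, n = 4 each), and 35.7 ± 4.53 in dehydrated and 30.1 ± 4.33 in control males (SD, n = 5 each). Its log2 fold changes were 0.38 ± 0.21 and 0.21 ± 0.13 (SE; limma adjusted p = 0.357 and 0.305). Prlr 1369493_at gave log2 fold changes of 0.04 ± 0.20 in females and 0.17 ± 0.15 in males (SE; limma adjusted p = 0.942 and 0.465). Prolactin receptor transcripts differ in their 3′ ends, which encode a long and a short form of the receptor, and the files do not say which transcripts each probe set reads.

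Prlr is also strongly expressed in the choroid plexus. Of 10 choroid plexus and ependyma markers on the array, 6 were tested in males, where 2 were lower and none higher in dehydrated rats. The summed signal of the 10 was 364 to 510 in dehydrated and 503.8 to 828.8 in control males. In females none of the 8 tested passed, and the summed signals of the 10 were 638 to 1934 in dehydrated and 447 to 1380 in control rats. The list's mean log2 value differed by -0.051 in females (2-sided exact permutation test, p = 0.771, 0.88 after adjustment over 11 marker lists) and by -0.26 in males (p = 0.0794, adjusted 0.146). Ttr, the most abundant choroid plexus marker, fell in males by 0.85 ± 0.17 on the log2 scale (SE, n = 5 each; limma adjusted p = 0.00320), and Foxj1, a ciliary factor of ependyma, fell by 0.63 ± 0.14 (limma adjusted p = 0.00833). In females the log2 fold change of Ttr was 0.76 ± 0.56 (SE, n = 4 each; limma adjusted p = 0.492). In at least 1 group of the sex, 8 of the 10 markers were above background in females and 7 in males, and Kl and Otx2 were not in either sex. The part of choroid plexus RNA in the Prlr values was not tested.

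Ghr, the growth hormone receptor, was not above background in any group at the 90th percentile. Its probe set 1368924_at averaged 19.2 ± 6.96 in dehydrated and 23.0 ± 9.40 in control females (SD, n = 4 each), with a log2 fold change of -0.19 ± 0.29 (limma adjusted p = 0.777). In males it averaged 7.08 ± 3.35 in dehydrated and 10.2 ± 3.84 in control rats (SD, n = 5 each) and was below the filter. Ghr 1373803_a_at was below the filter in both sexes. It averaged 10.6 ± 1.15 in dehydrated and 15.6 ± 7.19 in control females, and 13.4 ± 2.60 in dehydrated and 17.5 ± 4.88 in control males.

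Lepr, the leptin receptor, fell in dehydrated males on both of its probe sets that passed the filter. Lepr 1370605_s_at read 50, 25.7, 44.1, 33.0 and 41.1 in dehydrated males, against 82.0, 90.5, 70.0, 79.1 and 54.6 in control males. No dehydrated male array reached the lowest control, replicate 5. The means were 38.8 ± 9.54 and 75.2 ± 13.7 (SD, n = 5 each), and the log2 fold change was -0.86 ± 0.16 (SE; limma adjusted p = 0.00220).

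Lepr 1388232_a_at averaged 15.6 ± 5.25 in dehydrated and 28.8 ± 5.31 in control males (SD, n = 5 each). Its highest dehydrated array and its lowest control array both read 23.2. The dehydrated mean was not above its group's background of 23.0, so the fall was at least 1.25-fold, taking the dehydrated group at background, and the fitted log2 fold change was -0.70 ± 0.18 (SE; limma adjusted p = 0.0176). Without Slc12a1 that background was 19.0, and the bound would be larger. The other 5 Lepr probe sets were below the filter in both sexes. With no filter, 2 of those 5 passed in males: Lepr 1370604_at at a log2 fold change of -1.26 ± 0.26 and Lepr 1371223_a_at at -0.82 ± 0.23 (SE; limma adjusted p = 0.00905 and 0.0407), with every group mean below background, so that these values give no measure of a change.

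In females neither Lepr probe set passed, and neither was above the background of 36.4 in the dehydrated group. Without Slc12a1 that background was 28.2, and Lepr 1370605_s_at, at a mean of 28.9, lay above it. Lepr 1370605_s_at read 39.4, 21.5, 21.0 and 33.7 in dehydrated females, against 38.8, 28.8, 40.5 and 28.2 in control females. The groups overlapped, and the log2 fold change was -0.22 ± 0.23 (SE, n = 4 each; limma adjusted p = 0.642). Lepr 1388232_a_at averaged 19.1 ± 6.43 in dehydrated and 29.0 ± 6.71 in control females, with a log2 fold change of -0.48 ± 0.25 (limma adjusted p = 0.324).

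An _s_at probe set holds probes that several transcripts share, and RefSeq places Leprot, a gene for a protein that limits receptor surface levels, across the start of Lepr. Their signals may not be fully separate. Leprot 1388725_at read 218, 183, 229, 152 and 169 in dehydrated males, against 288, 331, 285, 282 and 197 in control males. It fell by 0.52 ± 0.13 on the log2 scale in males (SE, n = 5 each; limma adjusted p = 0.0130). In females its log2 fold change was -0.47 ± 0.14 (SE, n = 4 each; limma adjusted p = 0.0919).

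Il6st, which encodes the gp130 chain shared by the receptors of the interleukin-6 family, fell in males on 3 of its 4 probe sets. Il6st 1370957_at read 424, 323, 342, 386 and 357 in dehydrated males, against 531, 519, 500, 427 and 445 in control males. The groups did not overlap, although the highest dehydrated and the lowest control array differ by little. Their means were 366 ± 39.7 and 484 ± 46.0 (SD, n = 5 each), and the log2 fold change was -0.40 ± 0.08 (SE; limma adjusted p = 0.00433).

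Il6st 1371926_at averaged 291 ± 23.8 in dehydrated and 347 ± 31.7 in control males (SD, n = 5 each), and the log2 fold change was -0.25 ± 0.08 (limma adjusted p = 0.0386). Il6st 1383489_at averaged 31.2 ± 4.74 in dehydrated and 42.6 ± 4.41 in control males, and the log2 fold change was -0.39 ± 0.13 (limma adjusted p = 0.0470). Both calls were near the threshold: leaving out any 1 of dehydrated replicates 2, 3 and 4 or of control replicates 1 to 4 took either over it, as did dehydrated replicate 5 for Il6st 1383489_at. Their adjusted p over all alternatives ran from 0.00643 to 0.151 and from 0.0315 to 0.294. The fourth probe set, Il6st 1373140_at, had a log2 fold change of -0.32 ± 0.11 and did not pass (limma adjusted p = 0.0590).

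In females no Il6st probe set passed. Il6st 1370957_at averaged 312 ± 40.1 in dehydrated and 305 ± 42.1 in control females (SD, n = 4 each), and the log2 fold change was 0.03 ± 0.13 (limma adjusted p = 0.916). Il6st 1371926_at read 257, 245, 269 and 240 in dehydrated females, against 280, 280, 324 and 327 in control females. Here the groups did not overlap, but the log2 fold change of -0.25 ± 0.10 did not pass (SE; limma adjusted p = 0.212). It is close to the male value of the same probe set, and the female effect minus the male effect was -0.0012 ± 0.12 (95% interval -0.26 to 0.25).

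The falls of Lepr, Leprot and Il6st in males ran alongside those of meningeal genes. Of 14 meninges markers, such as Slc6a13, Crabp2 and Slc47a1, 14 were lower in dehydrated males and 6 in dehydrated females, and none was higher. Their summed signal was 2611 to 6768 in dehydrated and 5161 to 11942 in control males, and 2431 to 2902 in dehydrated and 3905 to 5019 in control females. Their mean log2 value differed by -1.23 in males (2-sided exact permutation test, p = 0.0238, 0.0873 after adjustment over 11 marker lists) and by -0.64 in females (p = 0.0286, adjusted 0.105). The smallest p these tests allow is 0.00794 in males and 0.0286 in females.

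Control male replicate 5 had the lowest meninges sum of the control males, 5161, and also the lowest Lepr 1370605_s_at signal, 54.6, and Leprot signal, 197. Dehydrated male replicate 1 had the highest sum of its group, 6768, with the highest Lepr signal, 50, and Il6st 1370957_at signal, 424, whereas the highest Leprot signal of that group, 229, was on replicate 3. Among control males the lowest Il6st 1370957_at reading, 427, was on replicate 4 and not on replicate 5. In females, control replicate 4 had the second-highest sum of its group, 4447, and the lowest control Lepr signal, 28.2. The part of meningeal RNA in the Lepr and Il6st results was not tested. In bulk tissue, fewer cells of a type and less RNA per cell cannot be told apart.

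**Figure D4:**
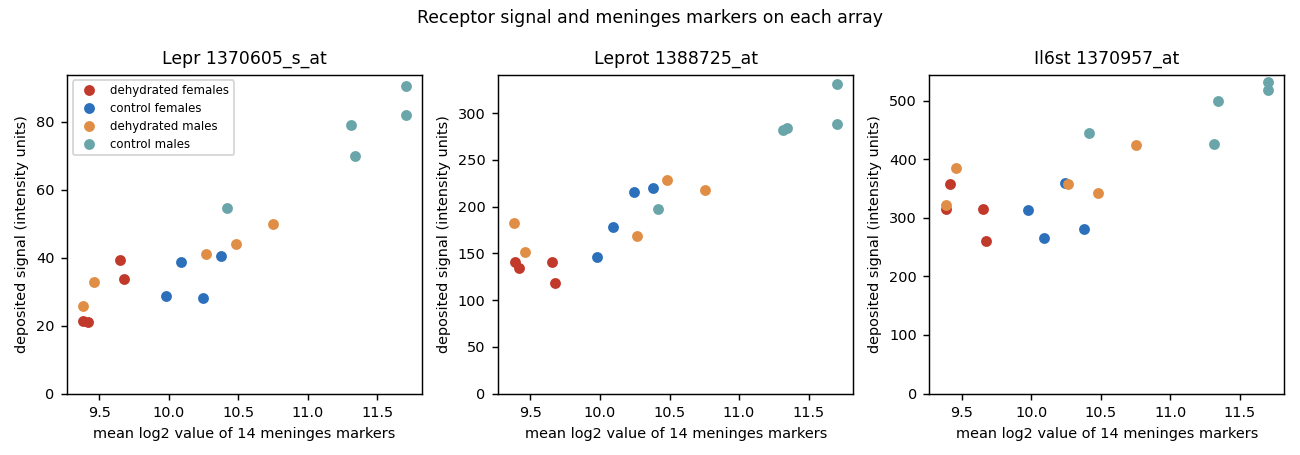
Deposited signal of Lepr 1370605_s_at, Leprot 1388725_at and Il6st 1370957_at on each array (intensity units, linear axes from 0) against the mean log2 value of the 14 meninges markers, coloured by group. Control males other than replicate 5 lie at the right with the highest Lepr signals, 70.0 to 90.5, and control male replicate 5 lies near the dehydrated males with 54.6.

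Markers of other cell types were read in the same fits. Of the microglia and macrophage markers, 4 of 10 tested were lower in dehydrated males and 0 of 11 tested in dehydrated females. Of the astrocyte markers 3 and 1 of 10 were lower, and of the endothelium markers 0 of 11 in each sex. Both blood markers on the array were lower in dehydrated males (mean difference -0.91, exact permutation p = 0.00794, adjusted 0.0437). In females Alas2 was also lower (log2 fold change -0.88 ± 0.20, limma adjusted p = 0.0364) and Hbb did not pass. The list differed there by -0.66 (exact permutation p = 0.0571, adjusted 0.126). Of 8 mural cell markers, 1 was higher and 2 were lower in males, and 0 passed in females. None of the cortical and amygdalar markers tested passed. Oligodendrocyte markers were lower for 4 of 8 tested in dehydrated females and 0 of 8 tested in dehydrated males. Of 8 magnocellular markers, Calb2 and Creb3l1 were higher in both sexes, as was Cckbr, and the list's mean was higher by 0.44 in females (exact permutation p = 0.0286, adjusted 0.105) and by 0.35 in males (p = 0.00794, adjusted 0.0437). Of the other 6 of that list, 4 were tested in each sex and did not pass, the defining Avp and Oxt among them. Otp and Pou3f2 were below the filter in both sexes. Calb2 and Creb3l1 had the largest rises of the list, which was chosen with earlier results of these data known. Its mean is therefore not a measure of the share of these neurons. Avp had log2 fold changes of 0.33 ± 0.19 in females and 0.08 ± 0.09 in males (SE; limma adjusted p = 0.380 and 0.563), and Oxt 0.40 ± 0.19 and 0.02 ± 0.10 (0.283 and 0.915), whereas Creb3l1 had 1.31 ± 0.14 and 1.86 ± 0.10 and Calb2 0.87 ± 0.11 and 0.78 ± 0.07. Of 8 pituitary markers, 3 in females (Lhb, Fshb and Cga) and 5 in males (those and Gh1 and Tshb) were above background in at least 1 group. None of the 4 tested in females or the 5 tested in males passed. The part of these cell types in the receptor results was not tested.

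Of the 12 receptor probe sets tested for a different dehydration effect in females and males, 0 passed by limma, where 0.0322% of all tested probe sets did, and 2 had an unadjusted p under 0.05. Those were Il6st 1370957_at, with a female minus male difference of 0.43 ± 0.15 (95% interval 0.12 to 0.75; unadjusted p = 0.00948, limma adjusted p = 0.316), and Lepr 1370605_s_at, with 0.64 ± 0.27 (95% interval 0.08 to 1.21; unadjusted p = 0.0274, limma adjusted p = 0.422). The calls in males and their lack in females are therefore not shown to differ, and sex, extraction and labelling cannot be told apart in this comparison.

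The ligands, related receptors and signalling partners of the 8 receptors, 140 genes in 8 lists, were read in the same fits. In dehydrated females 97 were tested, 1 rose and 3 fell, or 4.1%. In dehydrated males 101 were tested, 7 rose and 11 fell, or 17.8%. Both shares are near those of all probe sets tested, 2.96% and 17.7%. With dehydrated female replicate 5, none of these genes passed. The median log2 fold change of the 8 lists lay between -0.16 and 0.11 in females and between -0.52 and 0.05 in males, lowest in both for the 3 trafficking partners, beside -0.03 and -0.04 over all probe sets tested.

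Among the ligands 2 of 8 tested genes fell in males and 0 of 7 passed in females. Agt, which encodes the angiotensin precursor made by astrocytes, averaged 1974 ± 204 in dehydrated and 2385 ± 162 in control males (SD, n = 5 each), and the log2 fold change was -0.28 ± 0.07 (limma adjusted p = 0.0120). The Agt call was lost with arrays centred on their median and with no mean-variance trend (adjusted p up to 0.0663 over all alternatives). Cntf, a ligand that signals through gp130, averaged 75.9 ± 8.74 in dehydrated and 109 ± 11.5 in control males, and the log2 fold change was -0.49 ± 0.10 (limma adjusted p = 0.00398). Cck, the gene of the Cckbr ligand, averaged 304 ± 98.9 in dehydrated and 197 ± 47.8 in control females, and the log2 fold change was 0.58 ± 0.24 that did not pass (n = 4 each; limma adjusted p = 0.221). In males its log2 fold change was 0.16 ± 0.16 (limma adjusted p = 0.538). Prl, Lep and Il6 were below the filter in both sexes. The median log2 fold change of the ligands tested was -0.04 in females and -0.01 in males.

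No related receptor passed, with 7 tested in females and 3 in males. Il6r, the interleukin-6 binding partner of gp130, averaged 39.9 ± 9.18 in dehydrated and 55.2 ± 8.02 in control males (SD, n = 5 each), and the log2 fold change was -0.43 ± 0.15 (limma adjusted p = 0.0609). Cntfr, the CNTF-binding partner, had a log2 fold change of 0.31 ± 0.16 in males (limma adjusted p = 0.213).

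Within the Janus kinase and STAT list, Jak1 was the 1 gene of 15 tested that passed in males, higher by 0.23 ± 0.06 on the log2 scale (limma adjusted p = 0.0140), and 0 of 14 passed in females. Jak1 is the kinase that gp130 uses most. Its call was lost with quantile normalization, with no mean-variance trend and in 1 fit with all 4 groups (adjusted p up to 0.0956 over all alternatives). Of the inhibitors of that pathway, Pias2 was 1 of 11 to pass in males, higher by 0.29 ± 0.07 (limma adjusted p = 0.0112), and 0 of 11 passed in females. Socs3, the feedback inhibitor of leptin and gp130 signals, was below the filter in both sexes.

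Downstream of Gq, Itpr1, an inositol trisphosphate receptor of the calcium store, was the 1 of 13 genes to pass in males, with a log2 fold change of -0.37 ± 0.12 (limma adjusted p = 0.0375), and 0 of 13 passed in females. The Itpr1 call was lost on leaving out any 1 of dehydrated male replicates 2, 3 and 4 or of control male replicates 1 to 4 (adjusted p up to 0.0954 over all alternatives).

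The RGS proteins shorten G protein signals, and 2 of them fell in both sexes. Rgs2 averaged 212 ± 11.1 in dehydrated and 312 ± 9.99 in control females (SD, n = 4 each), and 249 ± 15.8 in dehydrated and 333 ± 10.5 in control males (SD, n = 5 each). In neither sex did the groups overlap, and the log2 fold changes were -0.55 ± 0.09 and -0.41 ± 0.06 (SE; limma adjusted p = 0.0116 and 0.000449). Rgs4 had log2 fold changes of -0.65 ± 0.16 in females and -0.46 ± 0.10 in males (limma adjusted p = 0.0461 and 0.00734). The female Rgs4 call was lost under 11 of 18 alternatives, among them leaving out dehydrated replicate 1, 2 or 4 or any of the 4 control arrays. Rgs7 averaged 384 ± 18.7 in dehydrated and 290.5 ± 30.5 in control males, a rise of 0.40 ± 0.07 on the log2 scale (limma adjusted p = 0.00205). With Grk6, a receptor kinase named after its values were seen, 4 of 15 genes of this list passed in males, 2 in each direction, and 2 of 14 fell in females. The Grk6 call was lost in 1 fit with all 4 groups (limma adjusted p = 0.104).

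Of the 3 receptor trafficking partners, Leprot and Agtrap fell in males. Agtrap, which encodes a protein that promotes internalisation of the angiotensin receptor, averaged 37.7 ± 7.37 in dehydrated and 59.5 ± 10.9 in control males (SD, n = 5 each), and the log2 fold change was -0.58 ± 0.15 (limma adjusted p = 0.0134). None of the 3 passed in females. Leprotl1, the third, went the other way and did not pass in either sex. Its log2 fold changes were 0.47 ± 0.14 in females and 0.23 ± 0.10 in males (SE; limma adjusted p = 0.0966 and 0.111).

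Among 48 other peptide and growth factor receptors, 1 of the 28 tested rose and 1 fell in females, and 3 of the 33 tested rose and 4 fell in males. Mc4r, the melanocortin 4 receptor, averaged 88.3 ± 5.87 in dehydrated and 34.2 ± 6.62 in control females (SD, n = 4 each), and 65.2 ± 11.3 in dehydrated and 28.1 ± 7.74 in control males (SD, n = 5 each). Its log2 fold changes were 1.23 ± 0.15 and 1.07 ± 0.16 (SE; limma adjusted p = 0.00215 and 0.000488), the same direction as Cckbr in both sexes. Calcr, the calcitonin receptor, averaged 54.2 ± 13.1 in dehydrated and 104 ± 16.5 in control females, and the log2 fold change was -0.88 ± 0.17 (limma adjusted p = 0.0231). The Calcr call was lost without dehydrated replicate 2 or 4 or without control replicate 1 (adjusted p up to 0.209 over all alternatives).

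In males Aplnr, the apelin receptor, averaged 93.1 ± 13.5 in dehydrated and 147 ± 24.8 in control rats (SD, n = 5 each), and the log2 fold change was -0.62 ± 0.12 (limma adjusted p = 0.00264). Ret, the signalling chain of the receptors of the GDNF family, averaged 427 ± 45.2 in dehydrated and 289.5 ± 57.5 in control males, a rise of 0.57 ± 0.12 on the log2 scale (limma adjusted p = 0.00573). In females the log2 fold changes were -0.55 ± 0.17 for Aplnr and 0.47 ± 0.13 for Ret, and neither passed (limma adjusted p = 0.113 and 0.0779).

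For each receptor probe set that was called, the genes whose log2 values ran most like it were ranked by Pearson's r over the 18 arrays, with each sex centred on its own mean. All arrays of a sex share the dehydration contrast, so a gene that differs between the same groups gives a high r, and r is a description. For Cckbr 1369713_at they were Crh (r = 0.939), which encodes corticotropin-releasing hormone, Hsd17b12 (0.939) and Tnfaip6 (0.937). For Prlr 1370384_a_at they were Mfsd1 (0.949), Atp6v1a (0.902), a subunit of the proton pump that acidifies vesicles, and Hprt1 (0.895).

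For Lepr 1370605_s_at the most alike genes were Sspn (0.946), Ptpn14 (0.938) and Slc9a2 (0.932), and for Lepr 1388232_a_at Tmbim1 (0.914), Tnfsf13 (0.907) and Slc25a30 (0.891). The 2 Lepr probe sets share none of their 3 genes. For Il6st 1370957_at they were Zbtb20 (0.876), Casp8ap2 (0.842) and Add3 (0.840), for Il6st 1371926_at Bmp6 (0.937), Rhpn1 (0.928) and Clmp (0.927), and for Il6st 1383489_at Vamp7 (0.918), Kctd12 (0.917) and Ahcyl1 (0.90). No gene stood in more than 1 of the 7 sets.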

How the data were processed

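The deposited values were linear intensity signals per probe set. Per the submitters' processing notes, the authors used GCOS 1.2 for males and MAS5 for females, and the 2% trimmed mean was about 100 on every array. Background settings are not given in the sources used here. Per the labels' protocols, male RNA was extracted with QIAzol and RNeasy, and female RNA with Trizol.

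Signals were set to a trimmed mean of 500 per array and taken as log2(signal + 32), so fold changes of low signals are understated. Printed levels are the deposited signals. Without 57 control probe sets, 21729 of 31099 probe sets above the 30th percentile of the mean log2 value were kept per fit. Platform symbols were single for 20832 probe sets, several for 436 and absent for 9831. Females, males and the difference between sexes (18 arrays) were fitted with limma 3.58.1 (lmFit, eBayes with trend) in R 4.3.3, with Benjamini-Hochberg adjustment over all probe sets kept. The fit was tested on simulated data. A gene in a list was read by its probe set of highest mean. Marker lists were compared by exact permutation tests over arrays, adjusted over 11 lists. Figures were drawn in Python 3.11.15 (matplotlib 3.10.9).

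The receptors, the gene and marker lists, the tests and the alternatives were chosen with earlier results of these data known. Named genes were the receptors, up to 3 genes past the threshold per list and sex with the largest changes, and the 3 genes most like each called probe set. Cck, Il6r, Cntfr, Socs3, Prl, Lep, Il6, Leprotl1 and the marker genes were named outside this rule, after their values were seen. The array left out was dehydrated female replicate 5.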

Additional observations from a re-analysis of the deposited data

Results flagged for a closer look

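In 4 of 48 groups of arrays tested, a receptor signal on 1 array stood apart from the rest of its group by Dixon's criterion, which chance meets in about 1 of 20 groups. Prlr 1370789_a_at read 37.1 on a dehydrated female array, below the rest of that group. Il6st 1371926_at read 291.9 on control male replicate 5, below the other control males. Il6st 1383489_at read 25.3 and Lepr 1388232_a_at read 18.9 on control female replicate 2, below the other control females. Leaving out dehydrated female replicate 4, control male replicate 5 or control female replicate 2 changed no call of these probe sets.

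Dehydrated female replicate 5, which was left out of the main comparisons, gave signals above background and above every control female for 8 receptor probe sets. They were 48.2 for Cckbr 1369713_at and 50.8 for Cckbr 1371159_a_at, 126.5 for Prlr 1369493_at, 270.7 for Prlr 1370384_a_at and 52.9 for Prlr 1370789_a_at, 71.9 for Lepr 1370605_s_at, 1104 for Il6st 1370957_at and 43.2 for Agtr1a 1384240_at. The highest control female read 26.7, 27.4, 53.8, 204, 49.6, 40.5, 360 and 32.1 for the same probe sets. The left-out array had a median signal over all probe sets of 64.4, against 39.65 to 46.47 on the other female arrays. It also read little Avp or Oxt. The share of all probe sets above every control female on it was not computed, so the count of 8 is not a result about the receptors.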

How the results depend on the processing

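In males the calls of Cckbr 1369713_at, Prlr 1370384_a_at, both Lepr probe sets and Il6st 1370957_at were kept under every alternative in which the probe set was tested, and the count of receptor calls ran from 5 to 8. The count in females was 2 with no filter, 0 with a filter at the 50th percentile, where the Cckbr probe set fell below the filter, and 0 with replicate 5. The count of related genes called in females, 4, was 13 with array weights, 17 in 1 fit with all 4 groups and 0 with replicate 5, and ran from 2 to 8 as each array was left out (2 without dehydrated replicate 2 or 4 or without control replicate 1, 8 without control replicate 2). The cause of these changes was not tested. Against the highest of the background probe sets, 3 receptor probe sets were above in dehydrated females, 5 in control females, 5 in dehydrated males and 6 in control males, and against the 75th percentile 18 were in control males.

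Values near 0 that did not pass changed sign. In females Il6st 1383489_at was 0.0058 with quantile normalization, 0.0021 with arrays centred on their median and 0.021 with replicate 5 (-0.36 to 0.17 with an array left out), Agtr1a 1384240_at 0.016, 0.028 and 0.096 under the same settings (-0.090 to 0.052), Prlr 1369493_at -0.0069 with array weights (-0.095 to 0.15), Il6st 1370957_at -0.034 to 0.12 with an array left out, and Lepr 1370605_s_at 0.017 with replicate 5. The female minus male difference of Il6st 1371926_at was 0.021 with quantile normalization, 0.00015 with an offset of 100, 0.0069 with array weights and 0.063 with replicate 5 (-0.038 to 0.059 with an array left out), that of Il6st 1373140_at -0.021 with array weights (-0.055 to 0.15), and that of Prlr 1369493_at 0.15 with replicate 5. Those of Cckbr ran from -0.098 to 0.41 for 1369713_at and from -0.031 to 0.43 for 1371159_a_at.

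No paired analysis was possible because dehydrated and control samples share no replicate numbers in the labels. Signals below background limit what can be said of Avpr1a, Oxtr and Ghr.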

Other observations

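Of the other peptide receptors, 4 that passed in males lay outside the rule for named genes and were chosen after their values were seen. Ramp1, a partner of the calcitonin-like receptors, averaged 244 ± 27.0 in dehydrated and 359 ± 17.5 in control males (SD, n = 5 each), with a log2 fold change of -0.55 ± 0.08 (limma adjusted p = 0.000283). Npr1, the receptor for atrial natriuretic peptide, averaged 42.8 ± 3.54 in dehydrated and 62.4 ± 8.93 in control males, with a log2 fold change of -0.48 ± 0.11 (limma adjusted p = 0.0102). Ntsr2, a neurotensin receptor, averaged 1121 ± 65.4 in dehydrated and 1312 ± 50.9 in control males, with a log2 fold change of -0.23 ± 0.05 (limma adjusted p = 0.00718). Sstr3, a somatostatin receptor, averaged 76.2 ± 6.68 in dehydrated and 54.6 ± 9.69 in control males, with a log2 fold change of 0.45 ± 0.12 (limma adjusted p = 0.0161). The Npr1 and Ntsr2 calls were lost in 1 fit with all 4 groups, and the Ntsr2 call also when arrays were centred on their median. In females none of the 4 passed, and Npr1 was below the filter on low values.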
